A study of Mus musculus with 31 samples.

Results

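The genes described here code for voltage-gated sodium, calcium and potassium channels, the other potassium channels, the HCN pacemaker channels and their auxiliary subunits. They were taken from the deposited hippocampal count table by symbol (Kcn followed by a letter, Scn with a number and a or b, Cacna, Cacnb and Cacng, and Hcn with a number). The rule found 120 of the 15648 genes in the table, of which 118 code for a protein and 2 (Kcnq1ot1 and Kcnmb4os2) do not. The rule uses the symbols alone, but it was set with earlier results of these data known. A further 20 protein-coding genes of the same families in GENCODE M21, such as Kcne1, Scn4a and Scn10a, are not among the rows and were not analysed here.

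With these mice the study sought transcription factors and pathways of a limbic encephalitis that cytotoxic T cells against a neuronal antigen cause in the hippocampus. Adult mice of the genotype OT-I/Rag-/- were injected into dorsal CA1 of both hemispheres with a vector that carries OVA, rAAV-hSyn-OVA-mCherry (the rAAV-OVA group), or with rAAV-hSyn-mCherry (the rAAV-control group), and RNA of the whole left hippocampus was sequenced after 2, 5, 8 and 28 days from 4 mice per group, or 3 in the rAAV-control group at 8 days. All mice, the controls included, carry the OT-I T cell receptor, which recognises an ovalbumin peptide on H-2Kb, and lack Rag1, so that they form no T or B cells with other receptors. The human synapsin promoter (hSyn) limits expression of the vector to neurons, and the rAAV-control mice received the surgery and the mCherry marker but no OVA. The 31 mice fall into batch 1 (23 mice) and batch 2 (8 mice) of the labels, and the 5 and 8 day groups are entirely of batch 1. The total was 19046977 to 57407902 counts per mouse.

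Ion channels set the electrical behaviour of neurons. Sodium channels open the action potential, voltage-gated and calcium-activated potassium channels end it and space the next, inward rectifier and 2-pore channels hold the resting potential, and calcium channels turn depolarisation into transmitter release and gene expression. Variants in many of these genes are linked to epilepsy in people, and several potassium channels also set the membrane potential of T cells, microglia and macrophages, on which calcium entry and activation depend.

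Levels between genes are given as CPM (counts scaled by library size) per kb of the longest transcript, as the mean of the 15 rAAV-control mice. On this scale the highest levels included those of the Kv beta subunit Kcnab2 (192), the calcium channel beta subunit Cacnb3 (74.0), the astrocytic inward rectifier Kcnj10 (63.3), the gamma subunit Cacng7 (61.8) and the sodium channel beta subunits Scn2b and Scn3b (58.6 each). At least 10 CPM per kb was reached by 52 of the 118 genes, while 19 genes lay under 1, among them Kcnn4 (0.206) and the skeletal muscle calcium channel Cacna1s (0.105). The main results thus span abundant neuronal channels and channels that are scarce in control hippocampus.

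Promoter sequences of 300 bases, from 250 before to 50 after the annotated start, were found in RefSeq (build GRCm38.p6) for 85 of the 118 genes. Shown are the promoters of the gene that rose most (Kcnn4, chr7:24370013-24370312, plus strand) and of the 2 genes with the largest called fall at 28 days (Kcnh7, chr2:63184238-63184537, and Kcnk4, chr19:6934466-6934765, both minus strand). Each is written 5′ to 3′ along the gene, and capitals mark matches on either strand to 4 motifs: the Sp1 GC box GGGGCGGGG, the STAT site GAS (TTCNNNGAA), the AP-1 site TGANTCA and the TATA box TATAAA.
Kcnn4: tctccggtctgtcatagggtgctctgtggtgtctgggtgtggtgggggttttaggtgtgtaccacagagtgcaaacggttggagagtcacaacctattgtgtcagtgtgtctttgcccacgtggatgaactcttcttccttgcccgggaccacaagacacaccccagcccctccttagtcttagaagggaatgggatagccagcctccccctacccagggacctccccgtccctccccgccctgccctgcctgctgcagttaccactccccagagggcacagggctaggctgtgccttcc
Kcnh7: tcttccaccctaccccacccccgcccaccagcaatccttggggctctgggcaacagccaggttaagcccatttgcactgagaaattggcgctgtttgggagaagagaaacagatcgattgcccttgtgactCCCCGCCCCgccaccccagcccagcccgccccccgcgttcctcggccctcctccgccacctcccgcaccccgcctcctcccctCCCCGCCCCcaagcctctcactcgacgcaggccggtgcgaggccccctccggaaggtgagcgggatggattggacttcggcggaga
Kcnk4: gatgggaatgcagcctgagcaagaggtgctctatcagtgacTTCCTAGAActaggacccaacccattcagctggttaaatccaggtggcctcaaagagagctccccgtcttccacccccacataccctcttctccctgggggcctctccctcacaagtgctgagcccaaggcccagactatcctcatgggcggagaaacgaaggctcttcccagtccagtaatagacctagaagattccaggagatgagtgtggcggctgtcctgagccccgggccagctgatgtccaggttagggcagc
None of the 4 motifs occurs in the Kcnn4 window. The Kcnh7 window holds the GC box 2 times, and the Kcnk4 window holds 1 GAS match. The GC box stands in 15.6% of the 32 promoters of genes that fell at 28 days and in 11.4% of all 32851 promoters of this length, GAS in 9.38% against 8.30%, AP-1 in 3.12% against 7.81%, the TATA box in 0 of 32 against 13.6%, and the partial REST element TTCAGCACC (RE1), also searched, in 0 of 32 against 0.371%. These are letter matches in a short window, and some genes have several promoters.

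A gene is called higher or lower (a DEG) at a false discovery rate (FDR) of at most 0.05 over all 15648 genes together with an absolute Log2FC of at least 0.66, in an edgeR fit of all 8 groups with 2 surrogate variables. The values per mouse are normalised CPM without the surrogate variables, so a Log2FC can differ from the ratio of the CPM values printed beside it.

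At 2 days no channel gene was called, and neither was any of the 15648 genes (0%, lowest FDR 0.21), although 9.05% of all genes had an unadjusted p under 0.05 in edgeR's test. Of the 118 channel genes 1 was higher and 1 lower at that unadjusted limit. DESeq2's Wald test called 0 channel genes and 0.0639% of all genes. The higher gene was Cacnb4, a calcium channel beta subunit, with a Log2FC of 0.32 ± 0.10 (SE, FDR = 0.37). The lower gene was Kcnj10, the Kir4.1 channel with which astrocytes clear potassium. It stood at 340, 618, 338 and 361 CPM in the rAAV-control mice and at 253, 247, 332 and 281 CPM in the rAAV-OVA mice, with a Log2FC of -0.56 ± 0.17 (FDR = 0.34). The groups did not overlap in Kcnj10, the 1 channel gene with all rAAV-OVA mice below the controls (against 1.94% of all genes), and 1 rAAV-control mouse lay well above the others. Of 6 astrocyte markers 5 also had a Log2FC below 0 at 2 days (median -0.22, none called), among them Gfap (-0.75 ± 0.39) and Aldh1l1 (-0.56 ± 0.20), and their summed level was 5660 to 5980 CPM in the rAAV-OVA mice and 6000 to 8250 CPM in the controls. Their part in the Kcnj10 values was not tested. All rAAV-OVA mice lay above the controls in 1 channel gene (against 2.22% of all genes). The next genes by p were Scn9a (Log2FC 0.91 ± 0.50) and Kcnj3 (0.27 ± 0.15) on the higher side and Kcnn4 (-1.37 ± 0.67) and Kcnj16 (-0.35 ± 0.19) on the lower side, none with an FDR under 0.56.

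From 5 days on, more channel genes lay lower in the rAAV-OVA group than higher. At 5 days 5 of the 118 genes were higher (4.24%, against 9.63% of all genes) and 13 lower (11%, against 4.72%). At 8 days 2 were higher (1.69%, against 9.32%) and 2 lower (1.69%, against 0.569%). At 28 days 10 were higher (8.47%, against 12.8%) and 31 lower (26.3%, against 4.88%). The median Log2FC of the channel genes was 0.08, -0.22, -0.26 and -0.43 at 2, 5, 8 and 28 days, while the median of all genes stayed between -0.03 and 0.01. All rAAV-OVA mice lay below all rAAV-control mice in 49 channel genes at 5 days (41.5%, against 19.6% of all genes), in 32 at 8 days (27.1%, against 11.9%) and in 47 at 28 days (39.8%, against 14%). The reverse, all rAAV-OVA mice above all controls, held for 7, 2 and 5 channel genes (against 21%, 14.4% and 15% of all genes). A Log2FC below 0 was found in 38, 79, 94 and 84 of the 118 genes at 2, 5, 8 and 28 days, against 47.1%, 51.3%, 53.2% and 48.7% of all genes. On the FDR alone 29, 9 and 51 channel genes were lower (against 14.1%, 4.35% and 14.3% of all genes) and 7, 2 and 10 higher (against 15.3%, 13.8% and 19.2%). Single mice moved the counts of DEGs: without rAAV-control mouse D755, 22 genes were lower at 5 days (against 4.78% of all genes), leaving out single mice at 8 days gave 1 to 4 genes higher (against 2.62% to 9.84%) and 0 to 4 lower (against 0.0767% to 0.876%), and at 28 days 3 genes were higher without D844 (against 12.5%) and 6 without D845 (against 12.5%) or D705 (against 13.1%). A fit without surrogate variables gave 20 genes lower at 5 days (against 5.55%) and 5 at 8 days (against 0.562%).

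**Figure D1:**
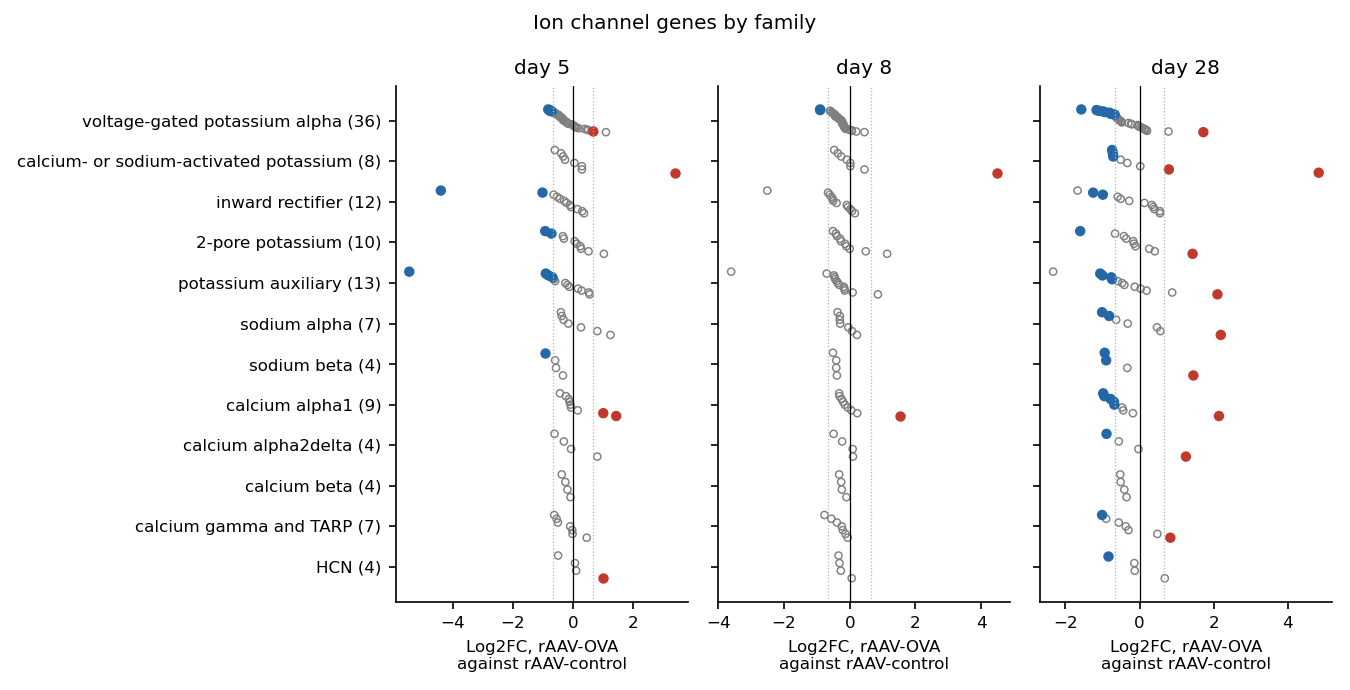
Log2FC of the 118 protein-coding channel genes (rAAV-OVA against rAAV-control, x axis) by family (y axis, number of genes in brackets) at 5, 8 and 28 days. Filled points were called higher (red) or lower (blue), open points were not called, and dotted lines mark the limit of 0.66. Most families lean to the left, with the most genes called lower at 28 days (31), and Kcnn4 stands furthest to the right at each of the 3 days.

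The neuron markers moved in the same direction. The median Log2FC of 10 neuron markers, such as Rbfox3, Snap25 and Syt1, was -0.31, -0.38 and -0.52 at 5, 8 and 28 days. Of these markers 0, 0 and 3 were called lower (against 4.72%, 0.569% and 4.88% of all genes). Their summed level at 28 days was 7360 to 8350 CPM in the rAAV-control mice and 3420 to 6420 CPM in the rAAV-OVA mice. For each mouse, the median log2 deviation of the channel genes from the control mean of the day was set beside that of the neuron markers. At 28 days the rAAV-OVA mouse D845 had -1.02 for the channels and -1.16 for the markers, D661 had -0.83 and -0.79, D667 had -0.32 and -0.23, and D844 had -0.15 and -0.48. The 2 mice with the lowest channel levels thus also had the lowest neuron marker levels. In RNA of whole tissue, fewer neurons and less channel RNA per neuron cannot be told apart. Oligodendrocyte markers were lower at 5 days as well (4 of 5, while 4.72% of all genes were, summed level 2680 to 3960 CPM against 4210 to 7260 CPM). Their part in the channel results of that day was not tested.

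**Figure D2:**
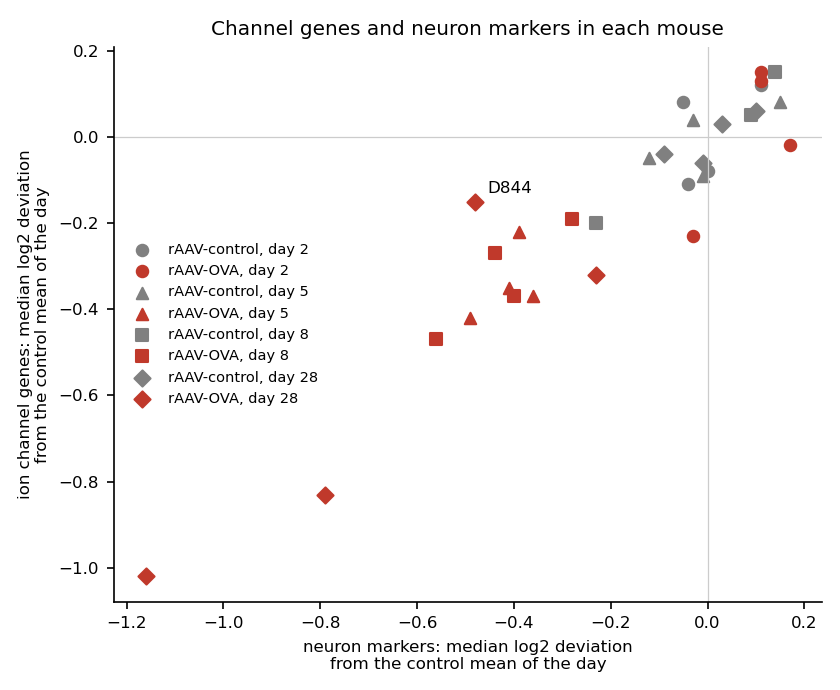
Median log2 deviation of the 118 channel genes (y axis) against that of 10 neuron markers (x axis) for each of the 31 mice, both from the mean of the rAAV-control mice of the same day, by group (colour) and day (shape). The rAAV-control mice sit around 0, the rAAV-OVA mice of 5 and 8 days lie lower on both axes, and at 28 days D661 and D845 lie lowest while D844 lies above D667 in the channels (-0.15 against -0.32) and below it in the markers (-0.48 against -0.23).

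At 28 days mouse D844 stood apart from the other 3 rAAV-OVA mice and has to be kept in view for that day. Some markers of GABAergic cells, Gad1, Gad2 and Slc32a1, were higher in it. Gad2 stood at 630 CPM against 82.3, 120 and 144 CPM in D661, D667 and D845, and Slc32a1 at 256 CPM against 32.1, 40.9 and 61.8 CPM, with 159 to 182 and 53.1 to 65.2 CPM in the rAAV-control mice. Vip lay below the controls in all rAAV-OVA mice, and the median log2 deviation of the 6 interneuron markers was 0.58 in D844 and -0.81 to -0.46 in the others. That of the 5 CA1 markers was -2.08 in D844 and -0.62 to -0.23 in the others, although the CA1 marker Wfs1 (167 CPM) lay within the control range of 133 to 218 CPM. The T cell marker Cd8a was lowest in D844 among the rAAV-OVA mice (6.28 CPM, against 168, 79.1 and 171 CPM). Without D844, 3 channel genes were higher (against 12.5% of all genes) and 17 lower (against 2.3%) at 28 days, and 12 of these 17 were among the 31 found with all mice. All of the 31 kept a Log2FC below 0 without it, and 16 kept an FDR of at most 0.05. The remaining mice had also served to pick these 31 genes, so their direction was largely set in advance.

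At 28 days the channel genes leaned lower within each batch. With 2 mice per group, batch 1 alone gave 4 genes lower (against 0.479% of all genes), of which 1 is among the 31 called with all mice, and 2 higher (against 6.68%), and batch 2 alone gave none among the channels or all genes. At an unadjusted p under 0.05 in edgeR's test, 44 were lower and 5 higher in batch 1 (against 7.62% and 18% of all genes) and 28 lower and 7 higher in batch 2 (against 7.66% and 5.37%). The median Log2FC of the channel genes was -0.51 in batch 1 and -0.48 in batch 2. The 31 genes called lower lay below 0 in both, but they were picked from these same mice, so their direction was largely set by that choice. Of the 10 genes called higher, 10 lay above 0 in batch 2, which holds D844, and 4 in batch 1.

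Of the 36 alpha subunits of voltage-gated potassium channels, which form the pore, 4 were lower (11.1%, against 4.72% of all genes) and 1 higher (2.78%, against 9.63%) at 5 days. At 8 days 2 were lower (5.56%, against 0.569%). At 28 days 9 were lower (25%, against 4.88%) and 1 higher (2.78%, against 12.8%). Kcnh7, an ERG channel that slows repetitive firing, gave the lowest FDR of all channel genes at 28 days. It stood at 75.7, 54.0, 72.8 and 70.7 CPM in the rAAV-control mice and at 15.8, 32.5, 21.9 and 20.5 CPM in the rAAV-OVA mice, with a Log2FC of -1.57 ± 0.20 (FDR = 2.6e-05). The groups were far apart, with the highest rAAV-OVA mouse below the lowest control. At 5 days Kcnh7 was already lower (24.7, 23.5, 26.1 and 26.5 CPM, against 47.3, 57.3, 35.4 and 42.5 CPM, Log2FC -0.78 ± 0.19, FDR = 0.0041), a call lost with ashr shrinkage (-0.62).

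Kcnb2, a delayed rectifier of the Kv2 family, had a Log2FC of -0.71 ± 0.19 at 5 days and of -1.10 ± 0.20 at 28 days (10.5, 19.2, 9.94 and 14.9 CPM in the rAAV-OVA mice against 31.6, 28.2, 33.7 and 26.4 CPM in the controls). The groups did not overlap in Kcnb2 at either day. The Kv3 channels Kcnc1 (-0.67 ± 0.15) and Kcnc2 (-0.82 ± 0.26), the silent subunit Kcns3 (-0.99 ± 0.27), the A-type channel Kcnd2, Kcna1 and Kcnq3 were lower at 28 days too, with overlapping groups in Kcnc2 and Kcns3. Without D844 the Log2FC was -0.37 for Kcnc1, -0.20 for Kcnc2, -0.30 for Kcns3 and -0.55 for Kcna1, and these 4 genes were no longer called. Without D661, Kcnc1 (-0.56) and Kcnc2 (-0.75) were not called either. Kcng2, another silent subunit, was lower at 5 days (-0.83 ± 0.28, with overlap). The 5 day calls of Kcng2 and Kcnb2 were lost without control mouse D724 (-0.75 and -0.59) and without rAAV-OVA mouse D725 (-0.61 for both).

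At 8 days 2 genes of this family were called: Kcna4, an A-type channel of axons (36.8, 22.8 and 39.7 CPM in controls, 14.5, 13.7, 13.2 and 17.1 CPM in the rAAV-OVA group, Log2FC -0.90 ± 0.28, FDR = 0.026), and the silent subunit Kcnv1 (44.0, 26.5 and 37.4 CPM against 18.3, 17.9, 17.3 and 20.1 CPM, Log2FC -0.90 ± 0.26, FDR = 0.020). The groups did not overlap in either gene. Both calls were lost without rAAV-OVA mouse D700 or D702 or rAAV-control mouse D696 or D722, and Kcna4 also without D701, and the control mouse D720 was the lowest control in both.

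**Figure D3:**
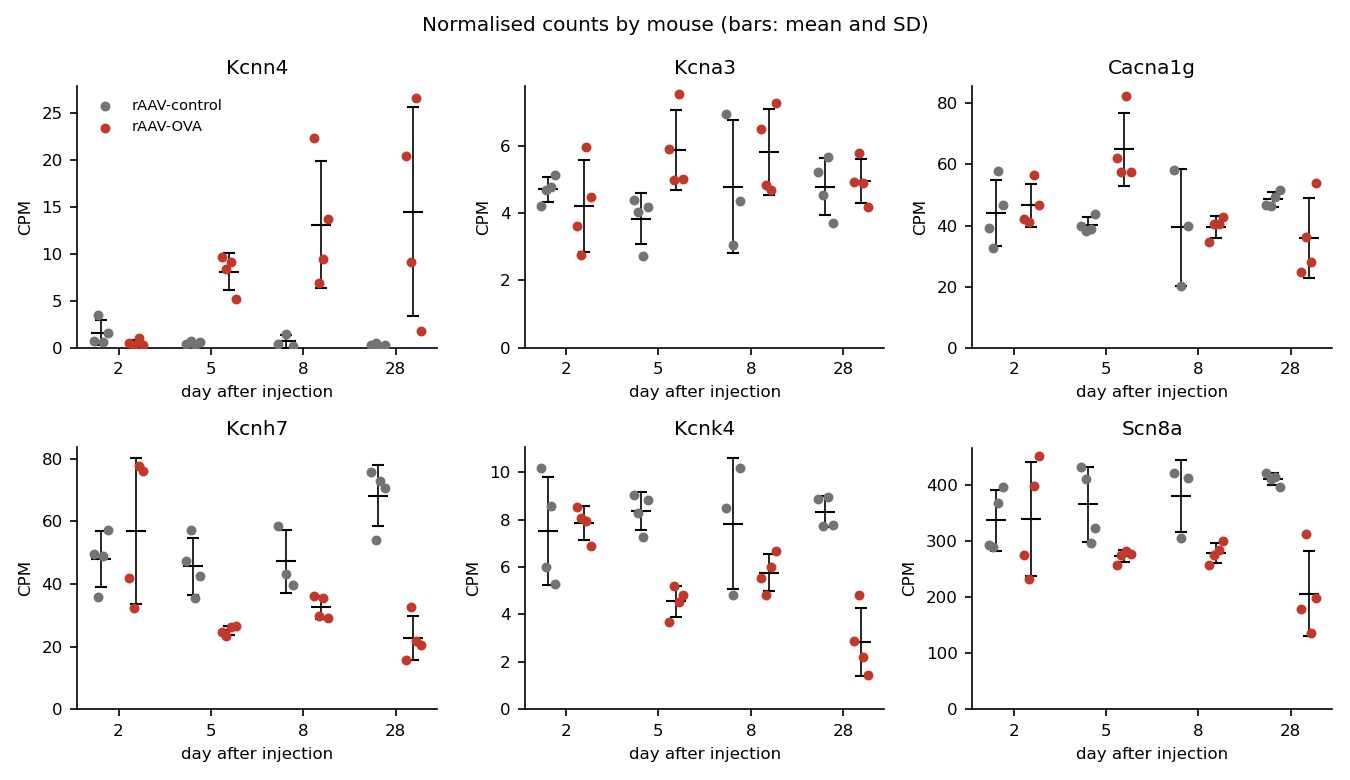
Normalised counts (CPM, y axis from 0) of Kcnn4, Kcna3, Cacna1g, Kcnh7, Kcnk4 and Scn8a in every mouse at 2, 5, 8 and 28 days (x axis), rAAV-control in grey and rAAV-OVA in red, with the mean and SD as bars. Kcnn4 rises from 5 days on, Cacna1g lies above its controls at 5 days alone among the 4 days, and Kcnh7, Kcnk4 and Scn8a lie below theirs at 28 days without overlap.

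Of the 12 inward rectifiers 2 were lower at 5 days and 2 at 28 days (16.7% each, against 4.72% and 4.88% of all genes). At 28 days these were the G protein-gated GIRK channels, which hyperpolarise neurons when inhibitory receptors are active. Kcnj6 (GIRK2) stood at 48.3, 43.3, 48.2 and 50.3 CPM in the rAAV-control mice and at 22.1, 36.4, 13.7 and 19.5 CPM in the rAAV-OVA mice (Log2FC -1.25 ± 0.21, FDR = 0.00025), and its partner Kcnj3 (GIRK1) at 152, 131, 154 and 129 CPM against 59.7, 101, 51.3 and 75.0 CPM (Log2FC -0.99 ± 0.17, FDR = 0.00025). The rAAV-OVA mice lay below the controls in both genes. Kcnj14, an inward rectifier with few counts, was lower at 5 days (0.814, 2.28, 1.59 and 1.11 CPM against 2.28, 3.87, 3.08 and 3.09 CPM, Log2FC -1.02 ± 0.28, FDR = 0.0091) and not at 28 days (0.33 ± 0.30, FDR = 0.40). The call at 5 days was lost without control mouse D724 (Log2FC -0.77, FDR = 0.060).

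The second inward rectifier called at 5 days, Kcnj13, and the auxiliary subunit Kcne2, both known from the choroid plexus, gave the most negative Log2FC of that day (-4.40 ± 1.48 and -5.45 ± 1.64). A single rAAV-control mouse, D724, set them: its CPM was 27.4 for Kcne2 and 21.6 for Kcnj13, while the other 3 controls reached 0.251 to 0.742 and 0.592 to 1.07, and the rAAV-OVA mice 0.154 to 0.674 and 0.155 to 1.04. Without D724 the FDR was 0.67 for Kcne2 and 0.60 for Kcnj13. D724 also had the highest sum of the choroid plexus markers Ttr, Folr1 and Kl (3680 CPM, against 37.1 to 135 CPM in the other 3 controls).

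The 2-pore channels carry the leak current that sets the resting potential. Of 10 genes 2 were lower at 5 days and 1 at 28 days (20% and 10%, against 4.72% and 4.88% of all genes). At 28 days Kcnk6 was higher (10%, against 12.8%). Kcnk4 (TRAAK), a mechanosensitive channel of axons, stood at 8.85, 7.74, 8.96 and 7.78 CPM in the rAAV-control mice at 28 days and at 2.87, 4.83, 2.19 and 1.45 CPM in the rAAV-OVA mice. Its Log2FC was the most negative of the day among genes whose groups did not overlap (-1.60 ± 0.29, FDR = 0.00046), and without D844 it was -1.04 and still called. Kcnk4 was lower at 5 days as well (3.68, 5.21, 4.51 and 4.82 CPM against 9.04, 8.29, 7.27 and 8.83 CPM, Log2FC -0.93 ± 0.27), a call lost with ashr shrinkage (-0.65). Its relative Kcnk2 (TREK-1) fell at 5 days (22.5, 29.5, 22.3 and 28.1 CPM against 46.6, 48.0, 48.0 and 49.5 CPM, Log2FC -0.72 ± 0.15, FDR = 0.0012) and had a Log2FC of -0.11 ± 0.15 at 28 days. D661, D667 and D845 then stood at 31.2, 32.7 and 31.5 CPM, below the controls (38.9 to 57.5 CPM), and D844 had 64.9 CPM. Without D844 the Log2FC was -0.46 (FDR = 0.04), not called. The call of Kcnk2 at 5 days was lost in 3 of 16 alternatives, namely with ashr shrinkage and without rAAV-OVA mouse D725 or D786.

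Among the 8 calcium- or sodium-activated potassium channels, which couple firing to calcium or sodium entry, 3 were lower at 28 days (37.5%, against 4.88% of all genes). These were the BK channel Kcnma1 (-0.72 ± 0.19), the SK channel Kcnn2 (-0.74 ± 0.18) and the SLICK channel Kcnt2 (-0.71 ± 0.21). The call was lost for Kcnma1 without D844 (-0.41) or D661 (-0.63), for Kcnn2 without D844 (-0.40) or D845 (-0.50), and for Kcnt2 without D661 (-0.59) or D845 (-0.61). Kcnn4 was higher at 5, 8 and 28 days and Kcnn3 at 28 days, both described further on. Of the 13 auxiliary potassium channel subunits 4 were lower at 5 days and 4 at 28 days (30.8% each, against 4.72% and 4.88% of all genes). Kcnab2, the most abundant Kv beta subunit, was in both sets (at 5 days 473, 514 and 531 CPM in 3 rAAV-OVA mice and slightly more in the other one, against 912, 804, 827 and 791 CPM, Log2FC -0.82 ± 0.18, FDR = 0.0018). Its CPM at 28 days was 514, 595, 256 and 261 against 693 to 782, with a Log2FC of -1 ± 0.19. Without D844 the latter was -0.58 and no longer called.

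Kcnip2, which binds A-type channels and sets their inactivation, fell at 5 days (61.9, 91.9, 74.7 and 77.3 CPM against 167, 149, 150 and 132 CPM, Log2FC -0.91 ± 0.24, FDR = 0.0067), together with Kcnab1 (-0.69 ± 0.20), whose call was lost without D724 (-0.65) or D725 (-0.64). Kcnab3 was called lower at 28 days (12.4, 13.6, 10.4 and 8.31 CPM against 31.3, 22, 30 and 23.9 CPM, Log2FC -1.06 ± 0.23, FDR = 0.0013), and this call was lost without D844 (-0.48). Kcnip4 (-0.74 ± 0.15) and the BK subunit Kcnmb4 (-0.76 ± 0.19) completed the set of 28 days. Kcnmb4 was not called without D844 (-0.49) or D845 (-0.44), and Kcnip4 not without D845 (-0.65). Kcnmb4os2, an antisense RNA of Kcnmb4, had a Log2FC of -1.05 ± 0.30, and reads of the 2 cannot be told apart without strand information. Kcnq1ot1 was not called at any day.

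Of the 7 sodium channel alpha subunits 2 were lower at 28 days (28.6%, against 4.88% of all genes). Scn8a (Nav1.6), the main sodium channel of the axon initial segment, stood at 421, 409, 414 and 396 CPM in the rAAV-control mice and at 178, 312, 136 and 197 CPM in the rAAV-OVA mice, with a Log2FC of -1.01 ± 0.18 (FDR = 0.00043). Scn1a (Nav1.1), which drives firing of inhibitory interneurons, stood at 117, 96.1, 116 and 102 CPM against 39.0, 73.3, 42.0 and 58.4 CPM (Log2FC -0.82 ± 0.18, FDR = 0.0016). Scn2a (Nav1.2) passed the FDR but not the limit on Log2FC (-0.63 ± 0.19, FDR = 0.013). The 3 genes had no overlap between the groups at 28 days, with the rAAV-OVA mouse D667 closest to the controls in Scn8a and Scn1a. Without D844 the Log2FC was -0.65 for Scn8a (FDR = 0.015) and -0.50 for Scn1a (FDR = 0.078).

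The sodium channel beta subunits anchor the alpha subunits and shape their gating. Scn2b, Scn3b and Scn4b lay lower in every rAAV-OVA mouse than in any control mouse at 5 days, as did 19.6% of all genes. Scn3b was called at that day (111, 164, 108 and 135 CPM against 280, 264, 230 and 204 CPM, Log2FC -0.93 ± 0.20, FDR = 0.0016) and at 28 days (-0.90 ± 0.21, FDR = 0.0022). Its call at 28 days held without D844 (Log2FC -0.83, FDR = 0.016).

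The 9 calcium channel alpha1 subunits moved apart. At 28 days 5 were lower (55.6%, against 4.88% of all genes): Cacna1a (P/Q-type), Cacna1b (N-type) and Cacna1e (R-type), which serve transmitter release, the L-type Cacna1c and the T-type Cacna1h. Cacna1a stood at 177, 170, 168 and 157 CPM in the rAAV-control mice and at 79.2, 113, 58.8 and 90.1 CPM in the rAAV-OVA mice (Log2FC -0.98 ± 0.15, FDR = 0.00013). The Log2FC was -0.78 ± 0.22 for Cacna1e, -0.69 ± 0.19 for Cacna1b and -0.68 ± 0.25 for Cacna1c, whose groups overlapped. Without D844 none of these 5 genes was called, and Cacna1a kept its FDR (Log2FC -0.66, FDR = 0.0027). Cacna1b, Cacna1c and Cacna1e also lost their call without D661, and Cacna1b and Cacna1c without D845.

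Cacna1g, the T-type channel Cav3.1 of burst firing, was higher at 5 days. It stood at 62.2, 57.5, 82.6 and 57.5 CPM in the rAAV-OVA mice and at 39.8, 38.1, 38.9 and 43.9 CPM in the controls, with a Log2FC of 1.00 ± 0.16 (FDR = 1e-04), and the call held under all 16 alternatives, which include leaving out each mouse of that day. At 28 days its Log2FC was -0.18 ± 0.16 (24.8, 36.3, 28.2 and 54.1 CPM against 46.6, 46.5, 49.5 and 51.7 CPM), and 3 of the 4 rAAV-OVA mice lay below the controls while D844 lay above them.

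Cacna1s, known from skeletal muscle, was higher at 5, 8 and 28 days with few counts throughout: 2.56, 1.91, 2.56 and 2.46 CPM against 0.403 to 0.853 CPM at 5 days (Log2FC 1.43 ± 0.34), 2.88, 2.37, 2.18 and 2.41 CPM against 0.501, 1.61 and 0.477 CPM at 8 days (1.54 ± 0.36), and 4.79, 1.80, 3.60 and 2.24 CPM against 0.402 to 0.722 CPM at 28 days (2.14 ± 0.35). The groups did not overlap at any of these days, although control mouse D720 lay well above the other controls of 8 days. Its call at 8 days was lost without control mouse D722. Cacna1s passed the authors' count filter only through the rAAV-OVA mice of 5 to 28 days, so its direction is given as a description.

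The accessory calcium channel subunits held fewer calls. Of the alpha2delta subunits, Cacna2d1, the gabapentin target, was lower at 28 days (-0.89 ± 0.22, 82.8, 180, 67.6 and 108 CPM against 220, 217, 208 and 189 CPM). Without D844 its Log2FC was -0.57 (FDR = 0.083). None of the 4 beta subunits was called, while all 4 passed the FDR at 28 days with a Log2FC between -0.52 and -0.35 (against 14.3% of all genes below 0). Of the 7 gamma subunits, which include the TARPs that traffic AMPA receptors, Cacng8 was lower at 28 days (50.4, 71.4, 34.6 and 58.1 CPM against 92.9, 101, 107 and 97.1 CPM, Log2FC -1.01 ± 0.16, FDR = 0.00013), and its call held without D844.

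The HCN channels carry the pacemaker current. Hcn2 lay lower at 5 days in each rAAV-OVA mouse (83.2, 98.3, 87.1 and 99.2 CPM against 135, 129, 138 and 140 CPM) with a Log2FC of -0.50 ± 0.11 under the limit. Hcn4, at under 5 CPM in each of these 8 mice, was called higher at 5 days with overlapping groups (2.87, 2.13, 3.62 and 4.58 CPM against 2.06 to 2.71 CPM, Log2FC 0.99 ± 0.33, FDR = 0.025), and this call was lost without control mouse D755 (0.86, FDR = 0.053), without rAAV-OVA mouse D787, with ashr shrinkage, without surrogate variables, with the batch label in their place and with the mice of 5 days alone.

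Of the 10 genes called higher at 28 days, 7 rested on mouse D844, among them Kcnmb1, Kcna5, Scn4b, Cacna2d2, Cacng4 and Kcnn3. Scn4b, a sodium channel beta subunit known for resurgent current, stood at 425 CPM in D844 and at 14.2, 12.9 and 23.4 CPM in the other rAAV-OVA mice, against 39.7, 24.5, 42.4 and 42.9 CPM in the controls. With all mice its Log2FC was 1.45 ± 0.54 (FDR = 0.043), and without D844 it was -0.96 (FDR = 0.034), so that the call turned to the other direction. Cacna2d2 had 206 CPM in D844 and 16.5, 20.1 and 52.4 CPM in the others (controls 27.6 to 48.2 CPM), and its Log2FC went from 1.25 ± 0.36 to 0.20. The Log2FC went from 1.72 ± 0.49 to -0.34 for Kcna5, from 0.83 ± 0.26 to -0.10 for Cacng4, from 2.10 ± 0.47 to 0.53 for Kcnmb1 and from 0.79 ± 0.22 to 0.20 for Kcnn3. None of these 7 genes remained called higher without D844, and Kcnn4, Cacna1s and Kcnk6 did. The calls of 5 of the 7 were also lost without rAAV-OVA mouse D845, with a Log2FC of 0.05 for Scn4b, and Kcnmb1 was 1.29 without D845, in which it stood at 4.08 CPM against 0.768 to 1.68 CPM in the controls.

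**Figure D4:**
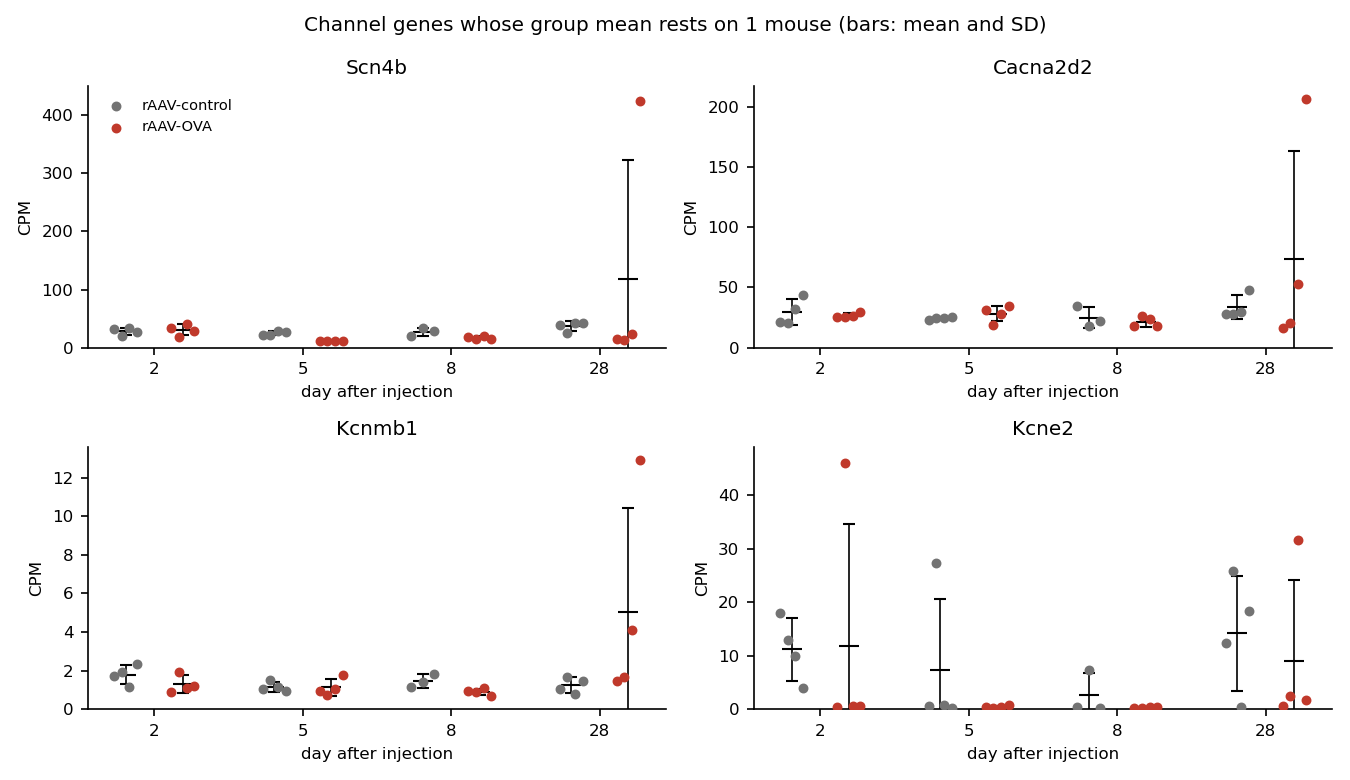
Normalised counts (CPM, y axis from 0) of Scn4b, Cacna2d2, Kcnmb1 and Kcne2 in every mouse at 2, 5, 8 and 28 days (x axis), rAAV-control in grey and rAAV-OVA in red, with the mean and SD as bars. A single rAAV-OVA mouse (D844) stands far above the other mice at 28 days in Scn4b (425 CPM), Cacna2d2 (206 CPM) and Kcnmb1 (12.9 CPM), and a single rAAV-control mouse (D724) in Kcne2 at 5 days (27.4 CPM).

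The epilepsy-linked channels are 32 genes whose human variants have been linked to epilepsy, for some of them with limited or disputed evidence. They were compiled by hand with earlier results of these data known. At 5 days 1 of them was higher (Cacna1g) and 0 lower, while 7 passed the FDR below 0 (against 14.1% of all genes). At 8 days none was called, and 2 passed the FDR below 0 (against 4.35%). At 28 days 16 were lower (50%, against 26.3% of all channel genes and 4.88% of all genes), 1 was higher (Cacna2d2) and 15 were not called. Their median Log2FC was -0.21, -0.29 and -0.65 at the 3 days. Without D844, 3 of the 16 were called lower (Kcnd2, Kcnq3 and Kcnt2), against 2.3% of all genes.

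Among the 16 genes were Scn1a, Scn8a, Kcna1, Kcnc1, Kcnc2, Kcnd2, Kcnma1, Kcnq3, Kcnt2, Cacna1a, Cacna1c, Cacna1e, Cacna1h and Cacna2d1. Kcnq3, a channel of the M current, which restrains bursting, stood at 142, 222, 96.4 and 163 CPM in the rAAV-OVA mice at 28 days and at 282 to 298 CPM in the controls (Log2FC -0.94 ± 0.20, FDR = 0.0011). Kcna1 (Kv1.1), an axonal brake on firing, stood at 46.6, 68.7, 39.4 and 50.3 CPM against 76.0 to 90.0 CPM (-0.77 ± 0.16, FDR = 9e-04), and Kcnd2 (Kv4.2), the dendritic A-type channel, at 63.2, 108, 52.2 and 114 CPM against 138 to 153 CPM (-0.78 ± 0.18, FDR = 0.0028). No rAAV-OVA mouse reached a control mouse in these 3 genes. The call of Kcnd2 was lost with ashr shrinkage and with the mice of 28 days alone.

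A further 7 genes passed the FDR at 28 days under the limit of 0.66, among them Kcna2 (-0.64 ± 0.16), Scn2a, Kcnj11 (-0.59 ± 0.13), Cacnb4 (-0.35 ± 0.11) and Cacna1d (-0.47 ± 0.14). The other 8 genes that were not called were Kcnj10, Kcnt1, Hcn2, Cacna1g, Kcnh1, Kcnh5, Scn3a and Kcnq5. Kcnj10 had 426, 304, 329 and 296 CPM in the rAAV-OVA mice and 279, 267, 305 and 318 CPM in the controls, with overlap (0.13 ± 0.18, FDR = 0.59), and Hcn2 had a Log2FC of -0.14 ± 0.11 (FDR = 0.34).

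**Figure D5:**
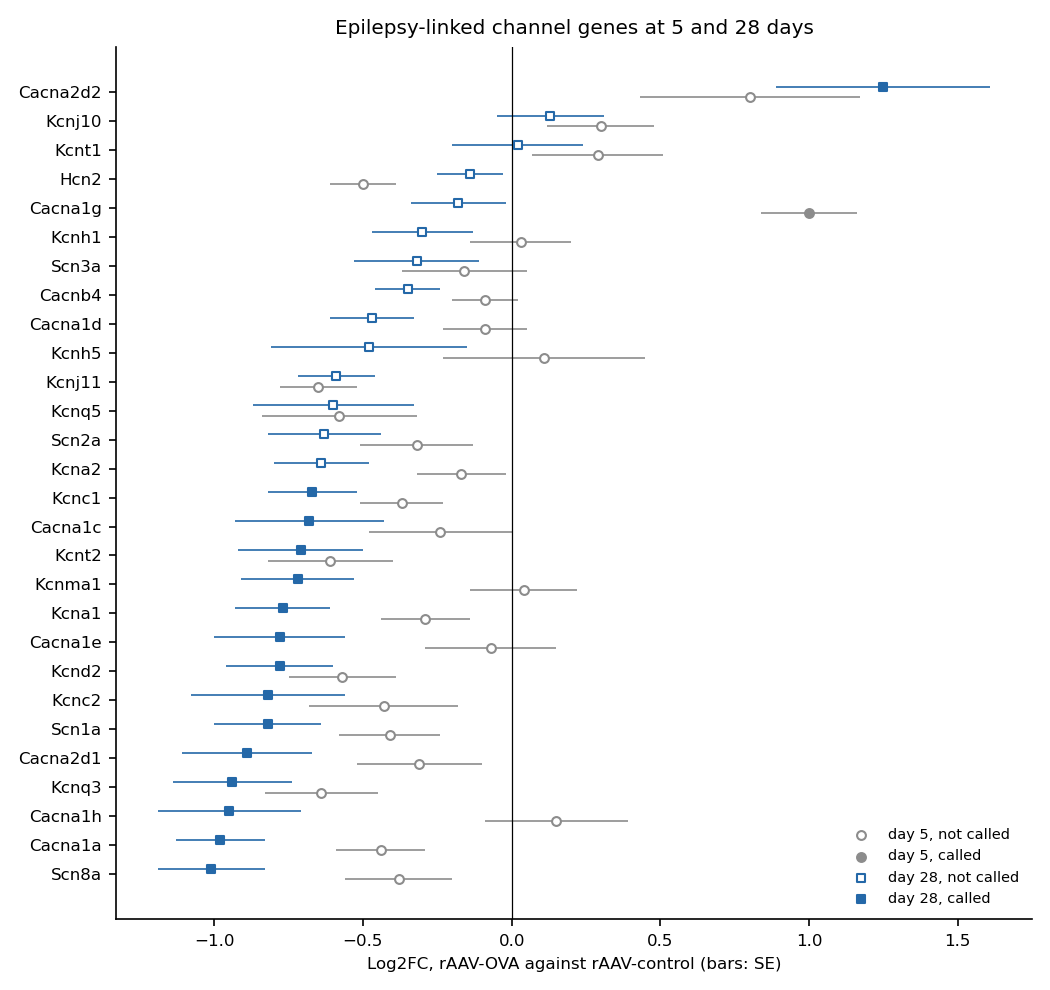
Log2FC (x axis, bars: SE) of 28 of the 32 epilepsy-linked channel genes (y axis, sorted by the value at 28 days) at 5 days (grey circles) and 28 days (blue squares), filled where called. At 28 days 25 of the 28 lie below 0 and 14 are filled on that side, Scn8a lowest at -1.01, whereas at 5 days Cacna1g alone is filled, at 1.00.

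The immune cell channels are 7 genes described in T cells, microglia or macrophages, listed by hand with earlier results of these data known. Of these 2 were higher at 5 days (Kcnn4 and Kcna3), 1 at 8 days (Kcnn4) and 2 at 28 days (Kcnn4 and Kcnk6), which is 28.6%, 14.3% and 28.6% of the 7 genes, against 9.63%, 9.32% and 12.8% of all genes. Kcnn4 is in each of these counts and passed the authors' count filter only through the rAAV-OVA mice of 5 to 28 days. No excess over all genes is therefore read from these shares. Kcnab2, which neurons also express, was lower at 5 and 28 days. Kcnn4 (KCa3.1), the calcium-activated channel of activated T cells and microglia, rose most of all 118 genes at each of these days. It stood at 0.403, 0.658, 0.297 and 0.556 CPM in the controls and at 9.66, 8.41, 9.19 and 5.19 CPM in the rAAV-OVA mice at 5 days (Log2FC 3.38 ± 0.68, FDR = 0.00076). At 8 days it stood at 0.334, 1.43 and 0.199 CPM against 22.4, 6.91, 9.49 and 13.7 CPM (4.48 ± 0.76, FDR = 0.00047). At 28 days it stood at 0.231, 0.441, 0 and 0.320 CPM against 20.5, 9.09, 26.6 and 1.76 CPM (4.83 ± 0.78, FDR = 0.00021). The groups were apart at each day, and the rAAV-OVA mice differed most among themselves at 28 days, when D844 was lowest. Kcnn4 and Cacna1s reached 15 counts in all 12 rAAV-OVA mice of 5 to 28 days and in 7 and 11 of the other 19 mice. Both thus passed the authors' filter of 15 counts in 15 mice only through the groups where they were high. Their direction is given as a description.

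Kcna3 (Kv1.3), which sets the membrane potential of T cells, was higher at 5 days by a small margin (5.89, 4.99, 7.53 and 5.02 CPM against 4.39, 4.02, 2.71 and 4.18 CPM, Log2FC 0.67 ± 0.22, FDR = 0.023). The call was lost under 9 of 16 alternatives, among them the fit without covariates and the fits without rAAV-OVA mouse D726 or D786 or rAAV-control mouse D724 or D745. At 8 and 28 days its Log2FC was 0.45 ± 0.23 and 0.06 ± 0.22. Kcnk6, a 2-pore channel, had 14.3 to 17.6 CPM against 3 to 8.92 CPM at 5 days (1.02 ± 0.43, FDR = 0.078) and 20.8, 11.5, 30.3 and 6.59 CPM against 3.62 to 5.35 CPM at 28 days (1.43 ± 0.44, FDR = 0.016). At 8 days the control mouse D720 had 20.2 CPM, and the groups overlapped (FDR = 0.078). Without D720 the Log2FC at 8 days was 2.14 (FDR = 0.0023), and without control mouse D755 that at 5 days was 1.50 (FDR = 0.012), both called higher. The groups did not overlap at 5 or 28 days, and the call at 28 days was lost without control mouse D851. Kcnk5, Kcnk13 and Kcnj2 were called at no day.

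Most T cell, monocyte and microglia markers measured were higher in the rAAV-OVA group at 5 and 28 days. Of 7 T cell markers 2, Cd8a and Gzmb, are among the rows. The authors kept genes with 15 counts in 15 mice, which these genes reached in all 12 rAAV-OVA mice of 5 to 28 days and in 4 and 3 of the other 19 mice, so their direction was fixed by the filter and is given as a description, with a summed level of 54.8 to 88.2 CPM in the rAAV-OVA mice against 0.179 to 1.68 CPM in the controls at 5 days. Of the 6 microglia markers 4, 2 and 5 were higher at 5, 8 and 28 days, and of the 5 monocyte markers 4, 4 and 5 (against 9.63%, 9.32% and 12.8% of all genes). The microglia marker P2ry12 went the other way at 5 days, with all rAAV-OVA mice below all controls (33.9 ± 3.51 against 49.3 ± 5.38 CPM, SD, n = 4 each) and a Log2FC of -0.65 ± 0.19 (FDR = 0.013), just short of the Log2FC limit. At 28 days Cd8a was 168, 79.1, 171 and 6.28 CPM in D661, D667, D845 and D844, in which Kcnn4 was 20.5, 9.09, 26.6 and 1.76 CPM. The control mouse D720 of 8 days, in which Kcnn4, Cacna1s and Kcnk6 lay above the other controls, also had more of these markers, with Cd8a at 9.73 CPM (1.09 and 0.517 CPM in the other controls), Gzmb at 8.11 CPM (0.334 and 0.676 CPM) and Aif1 at 39.4 CPM (4.68 and 9.71 CPM). The part of these cells in the rise of Kcnn4 and Kcnk6 was not tested.

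The astrocyte channels Kcnj10, Kcnj16 and Kcnk1 were called at no day, with a median Log2FC of -0.07, 0.02 and 0.13 at 5, 8 and 28 days. Of the mural cell channels Kcnj8, Kcnmb1 and Kcna5, the latter 2 were higher at 28 days and lost their call without D844, and Kcnj8 had a Log2FC of 0.55 ± 0.27 (FDR = 0.12).

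Of the 19 partners that bind, anchor or regulate these channels but lie outside the symbol rule, 1 was higher and 1 lower at 5 days (5.26% each, against 9.63% and 4.72% of all genes), 1 was higher at 8 days (5.26%, against 9.32%), and 2 were higher and 3 lower at 28 days (10.5% and 15.8%, against 12.8% and 4.88%). Those with the largest changes at 28 days were Pex5l (TRIP8b), which traffics HCN channels (-0.96 ± 0.14), Rest, a repressor of neuronal genes that include channels (0.95 ± 0.24), Fgf13, which binds sodium channels (-0.88 ± 0.23), and Dpp10, a Kv4 partner (0.81 ± 0.27), whose level varied widely in the rAAV-OVA mice (67.0 ± 60.2 CPM, SD, n = 4). Rest was higher at 5, 8 and 28 days, at 6.12 to 7.30 CPM in the controls and at 8.69 to 26.8 CPM in the rAAV-OVA mice at 28 days. The median Log2FC of the partners was -0.22, -0.24 and -0.46 at 5, 8 and 28 days.

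The calls of the days overlapped in part. Of the 13 genes lower at 5 days, 6 were lower at 28 days (46.2% of the 13 and 19.4% of the 31), among them Kcnab2, Kcnb2, Kcnh7, Kcnk4 and Scn3b. Of the 31 genes lower at 28 days, 28 had a Log2FC below 0 at 5 days, as did 79 of all 118 channel genes and 51.3% of all genes. Kcnn4 and Cacna1s were called higher at all 3 days. Of the 118 genes 65 were called at none of the 3 days, 45 at 1 day, 6 at 2 days and 2 at 3 days, and none in opposite directions.

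The response differed between 28 and 5 days in 7 channel genes by the test of the difference itself, 1 higher (against 3.82% of all genes) and 6 lower (against 2.31%). The difference was -1.18 for Cacna1g (FDR = 0.0017), -1.15 for Kcnj6 (FDR = 0.010), -1.10 for Cacna1h (FDR = 0.030), -0.94 for Kcnab3 (FDR = 0.038) and 1.35 for Kcnj14 (FDR = 0.029). Cacna1h, for example, was at 113, 135, 118 and 112 CPM in the rAAV-OVA mice and 97.9 to 120 CPM in the controls at 5 days, and at 73.1, 90.7, 31.7 and 77.4 CPM against 117 to 133 CPM at 28 days. Without covariates none of the differences was called. Leaving out single mice gave 1 to 21 genes that differed, with 1, Cacna1g, without D844, 21 without D667 and 2 without D725. Near the limit, 10, 4 and 8 genes with a passing FDR had an absolute Log2FC of 0.56 to 0.66 at 5, 8 and 28 days, and 4, 0 and 8 had 0.66 to 0.76.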

How the data were processed

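The authors deposited estimated counts per gene as whole numbers for 31 mice, made per the study's methods from paired-end poly-A libraries with Salmon 1.8.0 on GENCODE M29 and summed over transcripts, and dropped genes that did not reach 15 counts in 15 or more mice. Both deposited tables hold the same values (0 cells differ). The 824 genes with no symbol stayed in the fit. Totals differ about as the libraries' depths do, and values of a few CPM rest on few counts.

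Counts were TMM-normalised and fitted with edgeR 4.0.16 (quasi-likelihood F test, robust, R 4.3.3) over all 8 groups with 2 surrogate variables from sva 3.50.0, following the covariates of the study, which used DESeq2 1.36.0. Benjamini-Hochberg adjustment covered all 15648 genes. DEGs were genes at an FDR limit of 0.05 whose Log2FC reached 0.66 in either direction. The fit was also run on simulated counts without batches or unusual mice, so that run cannot show how such features move the calls. All FDR values in the text are from this edgeR fit unless another tool is named. Levels per kb use the longest GENCODE M21 transcript, and CPM per mouse are TMM-scaled. Named were, for each day, the genes with the largest called changes by direction, and the main epilepsy-linked and immune cell channels, and other members of a family were named where its counts were described, after their values were seen. Members and lists were chosen with earlier results of these data known. Alternatives were DESeq2 1.42.0, with and without shrinkage by ashr 2.2.63, other normalisation, filters, covariates and sample sets, and leaving out each mouse. Promoters came from RefSeq (GRCm38.p6), and motifs were searched on both strands. The strand of the libraries is not given in the sources used here. Results of some single genes are not reported here, and these genes remain in the counts.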

Additional observations from a re-analysis of the deposited data

Results flagged for a closer look

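In 2 of the 50 groups of 4 mice checked, 1 mouse lay far from the other 3 by Dixon's criterion (1 of them is given here), and chance alone gives about 1 in 20 such groups. Cacna1s was 1.91 CPM in rAAV-OVA mouse D726 at 5 days, against 2.46 to 2.56 CPM in the others.

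The Log2FC at 28 days minus the Log2FC at 5 days passed the edgeR test of the difference in 7 genes, of which 6 are given here. It was -1.18 for Cacna1g (1.00 at 5 days and -0.18 at 28 days, FDR = 0.0017), -1.15 for Kcnj6 (-0.10 and -1.25, FDR = 0.010) and -1.10 for Cacna1h (0.15 and -0.95, FDR = 0.030). The Kv beta subunit Kcnab3 had -0.94 (-0.13 and -1.06, FDR = 0.038) and the 2-pore channel Kcnk12 -0.71 (0.05 and -0.66, FDR = 0.047). Kcnj14 moved the other way, with 1.35 (-1.02 and 0.33, FDR = 0.029). All 5 day mice are of batch 1, so that batch and day cannot be fully told apart in these differences.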

How the results depend on the processing

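No paired analysis was possible because every mouse has its own name and the groups share no replicate number. Counts are given with those of all mice in brackets. With ashr shrinkage in DESeq2, 3 genes [5] were higher and 6 [13] lower at 5 days (8.05% and 2.45% of all genes), 0 [2] lower at 8 days (0.153%), 20 [31] lower at 28 days (2.77%), and 4 [7] differed between 28 and 5 days (4.11%), against 11 (8.09%) with DESeq2's Wald test. With at least 15 counts in every mouse, 0 [2] were higher at 8 days (5.78%). Without covariates 20 were lower at 5 days and 5 at 8 days and 0 differed between days (5.55%, 0.562% and 2.56% of all genes); with the batch label instead these were 20, 5 and 1 (5.66%, 0.601% and 3.16%), and 6 [10] were higher at 28 days (15.5%). With the mice of the day alone, 20 were lower at 5 days (5.46% of all genes), 0 higher and 0 lower at 8 days (0% of all genes in either direction), 4 higher at 28 days (10.9%) and 0 differed between days (1.55%). On the FDR alone, 29, 9 and 51 were lower at 5, 8 and 28 days (14.1%, 4.35% and 14.3%). Batch 1 alone gave 2 higher and 4 lower at 28 days (6.68% and 0.479%) and batch 2 alone 0 and 0 (0% and 0%). The cause of these changes was not tested.

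Leaving out each mouse in turn gave 0 to 0 genes at 2 days, 4 to 6 higher and 9 to 22 lower at 5 days, 1 to 4 and 0 to 4 at 8 days, 3 to 12 and 17 to 41 at 28 days, and 1 to 21 that differed between days. The highest count at 5 days came without control mouse D755, and at 28 days the lowest came without D844 and the highest without D667. Scn4b at 28 days changed direction, from 1.45 (called higher) to -0.96 (called lower) without D844. Values of genes at a few CPM or less in control mice, such as Kcnn4, Cacna1s and Kcnj14, rest on few counts.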
